A study of Mus musculus with 5 samples.

Results

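*Tnfsf11*, *Tnfrsf11b*, *Csf1* and *Il34* encode 4 secreted or membrane-bound signals by which bone marrow stroma and osteoblast-lineage cells control osteoclasts. All 4 genes were found by their symbols among the 30046 features of the count table. They were examined in marrow stromal cells of femurs at postnatal day 21 (P21) that descend from different cells of the fetal cartilage, marked by a single tamoxifen pulse at embryonic day 12.5 (E12.5). Dlx5CE-E12.5 cells came from mice carrying Cxcl12(GFP/+) and R26R(tdTomato/+) together with Dlx5(CreER/+), a driver active in the perichondrium, the cell layer around the cartilage. Fgfr3CE-E12.5 cells came from mice with the same GFP and tdTomato alleles and Fgfr3-iCreER, a driver active in fetal chondrocytes. Cells positive for both Cxcl12-GFP and tdTomato were sorted after the distal growth plates had been removed. There were 3 libraries of Dlx5CE-E12.5 cells (replicates 1 to 3) and 2 libraries of Fgfr3CE-E12.5 cells (replicates 2 and 3, as the labels number them). Each library held cells of littermates pooled by genotype, so a library is not 1 mouse. All groups carried a GFP gene in 1 copy of *Cxcl12*, and none lacked the tamoxifen pulse.

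Osteoclasts, the cells that resorb bone, form by fusion of precursors of the monocyte lineage. Their precursors need M-CSF (encoded by *Csf1*), which acts through the receptor CSF1R to keep them alive and dividing. IL-34 (*Il34*) is a second ligand of the same receptor, unrelated to M-CSF in sequence. RANKL (*Tnfsf11*) then acts on RANK (*Tnfrsf11a*) on the precursor to drive osteoclast formation, and osteoprotegerin (*Tnfrsf11b*) is a secreted decoy receptor that binds RANKL and blocks it. The balance of RANKL to osteoprotegerin is therefore often read as a ratio, here as a ratio of transcripts. The comparison asked whether stromal cells of perichondrial and of chondrocyte origin differ in these transcripts.

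The libraries held between 22035650 and 32563758 counts in Dlx5CE-E12.5 cells and between 56355203 and 58166285 in Fgfr3CE-E12.5 cells. Levels are in CPM, counts scaled to a common library size after TMM normalization, and fold changes are given as log2 of Fgfr3CE-E12.5 over Dlx5CE-E12.5, so that a negative value is higher in Dlx5CE-E12.5 cells. A gene was called when edgeR's quasi-likelihood test gave a Benjamini-Hochberg adjusted p under 0.05 and the log2 fold change exceeded 1 in either direction. Of 10088 genes tested, 29.5% were called, 1653 higher in Fgfr3CE-E12.5 cells and 1318 higher in Dlx5CE-E12.5 cells. By adjusted p alone, 48.4% passed. The study's methods give different sequencers and read lengths for the lineages, while the labels name a single instrument for all libraries. The sample names in the labels also take a different form in each lineage, for a reason not stated. If the methods hold, sequencer and lineage cannot be told apart. In bulk libraries, fewer cells of a type and less RNA per cell cannot be told apart either.

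The label of the sorted cells as CXCL12-abundant reticular (CAR) cells was compared with its markers. All 8 CAR markers were measured, with a summed level of 32310 to 34170 CPM in the Dlx5CE-E12.5 libraries, and of 13090 and 8611 CPM in Fgfr3CE-E12.5 replicates 2 and 3. Of the 8, 5 were called higher in Dlx5CE-E12.5 cells and 1, *Foxc1*, higher in Fgfr3CE-E12.5 cells. *Cxcl12* itself stood at 21252 to 22405 CPM against 8068 and 5802 CPM. The Fgfr3CE-E12.5 libraries also held more RNA of chondrocyte, osteoblast, leukocyte and osteoclast markers, whose values are given beside the genes below. Of the remaining lists, 2 B cell markers were called higher in Fgfr3CE-E12.5 cells and 1 lower among 7 tested, 2 of 3 tested T cell and innate lymphoid markers were called higher there, and 1 of 5 endothelial and 2 of 6 erythroid markers were called lower.

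The transcripts of the 4 genes split evenly between the lineages. *Il34* was 9.06-fold higher in Dlx5CE-E12.5 cells and *Csf1* was 1.74-fold higher there, whereas *Tnfrsf11b* was 3.19-fold higher in Fgfr3CE-E12.5 cells and *Tnfsf11* was 1.60-fold higher there. Adjusted p was under 0.05 for all 4, while the fold threshold was also passed by *Il34* and *Tnfrsf11b*. Among all 10088 genes tested, 48.4% had an adjusted p under 0.05 and 29.5% were called. No gene of the 4 had overlapping libraries between the lineages, which was also the case for 66.5% of the 13225 genes that reached 1 CPM in 2 libraries or more.

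**Figure D1:**
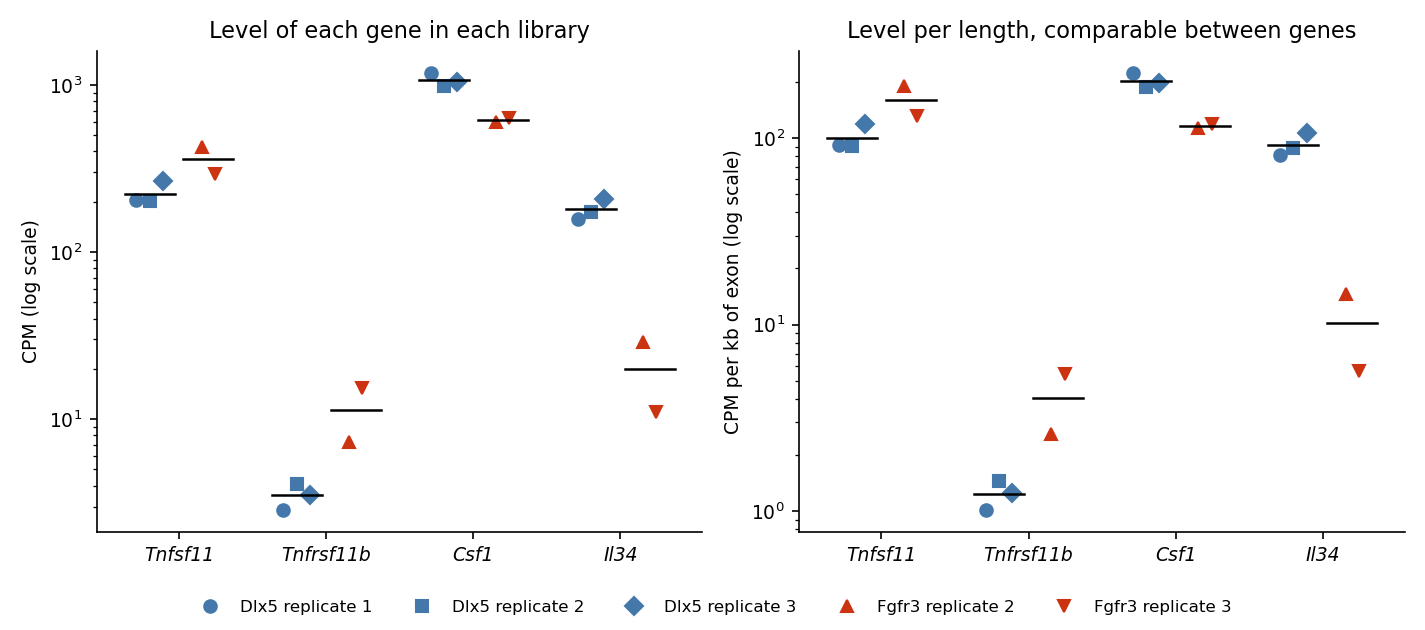
Levels of the 4 genes in each of the 5 libraries, as TMM-scaled CPM (left) and CPM per kilobase of exon (right), both on log axes. Points are libraries, blue for Dlx5 and red for Fgfr3, and black lines are group means. Il34 lies at 158 to 208 CPM in Dlx5 libraries and at 28.8 and 11.0 CPM in Fgfr3 libraries, the widest gap of the 4 genes.

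*Tnfsf11* is a single-transcript gene on the minus strand of chromosome 14 (GRCm38, chr14:78277445-78308043, ENSMUSG00000022015). Its level was 205, 202 and 265 CPM in Dlx5CE-E12.5 replicates 1, 2 and 3, and 424 and 293 CPM in Fgfr3CE-E12.5 replicates 2 and 3. Both Fgfr3CE-E12.5 libraries were above every Dlx5CE-E12.5 library, but replicate 3 lay close to the highest of them. The means were 224 ± 36.0 CPM (SD, n = 3) and 358 ± 92.5 CPM (SD, n = 2), with a log2 fold change of 0.68 (SE 0.21, adjusted p = 0.033 by edgeR's quasi-likelihood test). The gene was not called, since the fold change was under the threshold. The difference also lost an adjusted p under 0.05 without Dlx5CE-E12.5 replicate 1 (0.62, adjusted p = 0.0886), without Dlx5CE-E12.5 replicate 2 (0.60, adjusted p = 0.115) and without Fgfr3CE-E12.5 replicate 2 (0.46, adjusted p = 0.102), by the same test.

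*Tnfsf11* was among the more abundant transcripts for its length in every library. Per kilobase of exon, its level was 91.5, 90.2 and 119 CPM in Dlx5CE-E12.5 cells and 190 and 131 CPM in Fgfr3CE-E12.5 cells. These levels stood above those of 97.28% to 97.98% of protein-coding genes with any count in Dlx5CE-E12.5 cells, and of 98.39% to 99.04% in Fgfr3CE-E12.5 cells. Between the Fgfr3CE-E12.5 libraries, *Tnfsf11* was 1.45-fold higher in replicate 2. The summed chondrocyte markers moved the same way, with 2925 CPM in replicate 2 and 411 CPM in replicate 3 against 120 to 131 CPM in Dlx5CE-E12.5 cells. They were 7.12-fold higher in replicate 2 than in replicate 3. The summed CAR markers were also higher in replicate 2, by 1.52-fold, though both Fgfr3CE-E12.5 libraries lay below the Dlx5CE-E12.5 libraries. Summed osteoblast and pan-leukocyte markers were lower in replicate 2 than in replicate 3. Of 7 chondrocyte markers, 4 of the 5 tested were called higher in Fgfr3CE-E12.5 cells. The other, *Sox9*, was lower there and not called, at 96.8 and 53.7 CPM against 117 to 124 CPM. *Sox9* thus made up most of the summed level in the Dlx5CE-E12.5 libraries. *Col10a1*, which marks hypertrophic chondrocytes, had 1350 and 14 counts in replicates 2 and 3 and none in Dlx5CE-E12.5 cells. Hypertrophic chondrocytes can themselves express *Tnfsf11*, and the part of these cells in its level was not tested. The summed osteoblast markers, listed with *Tnfrsf11b*, were also higher in both Fgfr3CE-E12.5 libraries than in Dlx5CE-E12.5 cells. The part of osteoblasts and of CAR cells was not tested either.

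*Tnfrsf11b* (chr15:54250619-54278484, minus strand, ENSMUSG00000063727) was by far the least abundant of the 4. Its raw counts were 88, 87 and 89 in Dlx5CE-E12.5 replicates 1 to 3, and 451 and 973 in Fgfr3CE-E12.5 replicates 2 and 3. These correspond to 2.87, 4.10 and 3.54 CPM against 7.33 and 15.4 CPM. All Dlx5CE-E12.5 libraries were low, and Fgfr3CE-E12.5 replicate 3 was 2.09-fold above replicate 2. Only 1 library reached 10 CPM, so the gene was fitted among the 13225 genes that reached 1 CPM in 2 libraries or more (the lower filter), of which 29.5% were called and 43.5% had an adjusted p under 0.05. In that fit the log2 fold change was 1.68 (SE 0.38, adjusted p = 0.011 by edgeR's quasi-likelihood test), and the gene was called higher in Fgfr3CE-E12.5 cells. The means were 3.502 ± 0.614 CPM (SD, n = 3) and 11.3 ± 5.67 CPM (SD, n = 2).

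The call of *Tnfrsf11b* rested on Fgfr3CE-E12.5 replicate 3. Without that library the log2 fold change was 1.07 (adjusted p = 0.0944, edgeR's quasi-likelihood test), and without replicate 2 it was 2.14. The markers of leukocytes followed the same order in these libraries. All 7 pan-leukocyte markers were called higher in Fgfr3CE-E12.5 cells, with summed levels of 320 to 414 CPM in Dlx5CE-E12.5 libraries, 1078 CPM in Fgfr3CE-E12.5 replicate 2 and 2227 CPM in replicate 3. All 7 neutrophil markers were called as well, at 2399 to 3001 CPM, 6693 CPM and 16470 CPM. Replicate 3 thus held 2.07-fold more of the pan-leukocyte markers and 2.46-fold more of the neutrophil markers than replicate 2. Of 9 osteoblast markers, 6 were called higher in Fgfr3CE-E12.5 cells. *Bglap*, *Bglap2* and *Ibsp* had overlapping libraries and were not called. The 9 markers summed to 4450 to 6512 CPM in Dlx5CE-E12.5 libraries, 12500 CPM in Fgfr3CE-E12.5 replicate 2 and 15660 CPM in replicate 3. *Spp1* alone was at 714 to 1242 CPM, 5273 CPM and 5949 CPM in these libraries. The part of leukocytes and osteoblasts in the level of *Tnfrsf11b* was not tested.

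*Csf1* (chr3:107741048-107760469, minus strand, ENSMUSG00000014599, 7 annotated transcripts) was the most abundant of the 4 by CPM in every library. It was measured at 1185, 988 and 1041 CPM in Dlx5CE-E12.5 replicates 1, 2 and 3, and at 601 and 630 CPM in Fgfr3CE-E12.5 replicates 2 and 3. The libraries of each lineage lay close together, and the lineages were well apart. The means were 1071 ± 102 CPM (SD, n = 3) and 615 ± 20.6 CPM (SD, n = 2), with a log2 fold change of -0.80 (SE 0.16, adjusted p = 0.00615 by edgeR's quasi-likelihood test). *Csf1* was not called because its change was under the fold threshold, but its adjusted p was under 0.05 without each library in turn, with log2 fold changes between -0.86 and -0.69. The counts do not separate the transcripts of this gene, which encode secreted and membrane-bound forms of M-CSF.

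*Il34* (chr8:110741829-110805924, minus strand, ENSMUSG00000031750, 5 annotated transcripts) had the largest difference of the 4. Its level was 158, 174 and 208 CPM in Dlx5CE-E12.5 replicates 1, 2 and 3, and 28.8 and 11.0 CPM in Fgfr3CE-E12.5 replicates 2 and 3. Every Dlx5CE-E12.5 library was far above both Fgfr3CE-E12.5 libraries, which themselves differed. The means were 180 ± 25.6 CPM (SD, n = 3) and 19.9 ± 12.6 CPM (SD, n = 2), with a log2 fold change of -3.18 (SE 0.42, adjusted p = 0.0011 by edgeR's quasi-likelihood test). The call held without each library, while its size moved with the Fgfr3CE-E12.5 libraries, from -2.59 without replicate 3 to -3.96 without replicate 2.

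*Il34* shares 97 exonic bases with *Gm15895* and *Gm15894* on the opposite strand, and the strand setting of the counting is not given in the sources used here. The antisense genes had at most 29 counts in any library, against 697 to 5236 counts of *Il34*. Of the 1999 windows of 50 bases in *Il34* transcripts, 1.301% also occurred in another gene, and none did for the other 3 genes. Between the Fgfr3CE-E12.5 libraries, *Il34* was 2.61-fold higher in replicate 2, where the summed CAR markers were 1.52-fold higher than in replicate 3. The part of the proportion of CAR cells in the level of *Il34* was not tested.

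**Figure D2:**
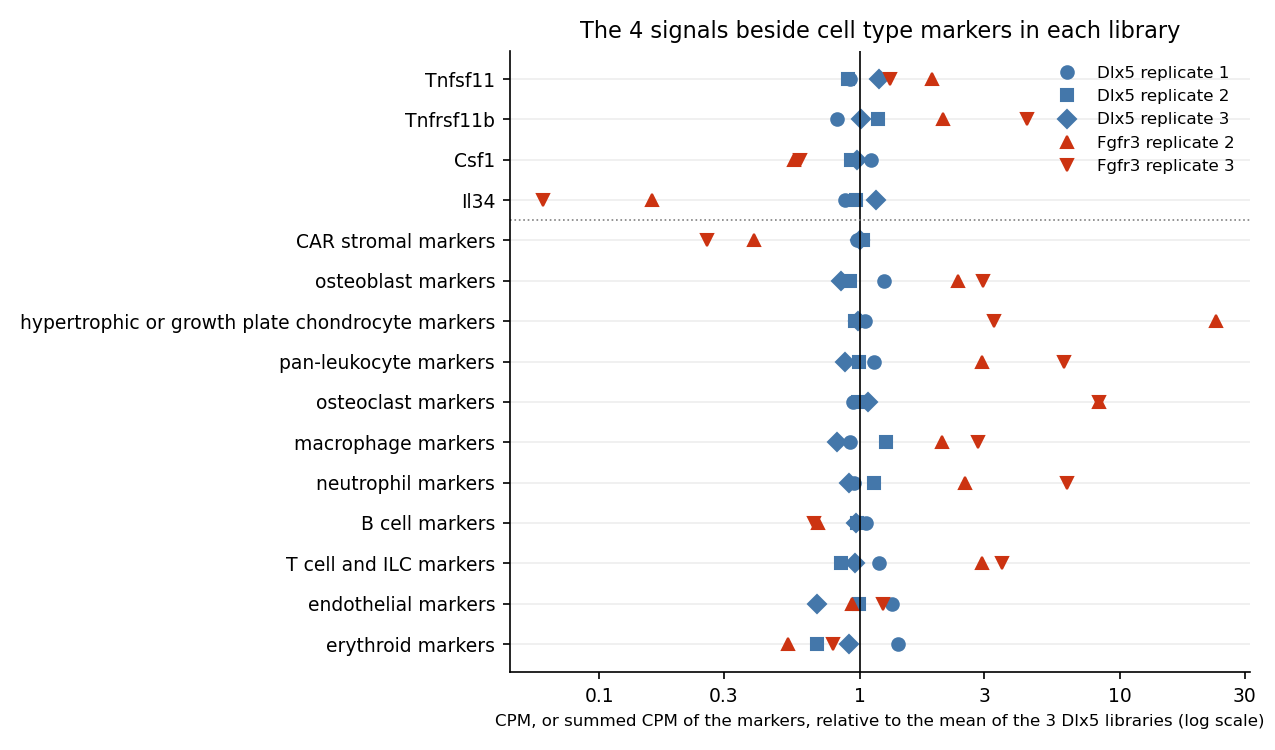
Each row gives 1 gene (CPM) or 1 marker list (summed CPM) in the 5 libraries, relative to the mean of the 3 Dlx5 libraries, on a log axis. Il34, Csf1 and the CAR, B cell and erythroid markers lie left of 1 in both Fgfr3 libraries. Tnfrsf11b and the osteoblast, pan-leukocyte, neutrophil, macrophage and T cell and innate lymphoid markers lie right of 1 there. These lie further right in replicate 3 than in replicate 2.

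Different genes can be compared per kilobase of exon. On this scale the order of the 4 means differed between the lineages only for *Csf1* and *Tnfsf11*. In Dlx5CE-E12.5 cells the means were 203 ± 19.3 CPM per kilobase for *Csf1*, 100.1 ± 16.1 for *Tnfsf11*, 91.9 ± 13.1 for *Il34* and 1.24 ± 0.218 for *Tnfrsf11b* (SD, n = 3). *Tnfsf11* stood above *Il34* in each of these libraries, at 91.5, 90.2 and 119 against 80.7, 88.75 and 106 CPM per kilobase. The gap of the means was within the spread between libraries, and the difference within libraries was not tested. In Fgfr3CE-E12.5 cells they were 160 ± 41.4 for *Tnfsf11*, 117 ± 3.90 for *Csf1*, 10.1 ± 6.41 for *Il34* and 4.02 ± 2.01 for *Tnfrsf11b* (SD, n = 2). Neighbours in that order were separated by about their spread or less for *Tnfsf11* and *Csf1*, and for *Il34* and *Tnfrsf11b*, where replicate 3 had 5.61 and 5.45 CPM per kilobase. With the longest transcript taken as the length of *Csf1*, an alternative chosen after seeing the data, *Csf1* stood at 144 and 151 CPM per kilobase in the Fgfr3CE-E12.5 libraries, between the 190 and 131 of *Tnfsf11*. *Il34* exceeded 96.83% to 97.65% of protein-coding genes in Dlx5CE-E12.5 cells but 80.63% and 61.87% in the Fgfr3CE-E12.5 libraries, while *Tnfrsf11b* exceeded 36.6% to 40.55% and 47.95% and 61.28%.

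The ratio of *Tnfsf11* to *Tnfrsf11b* counts, which does not depend on the scaling of the libraries, was 71.3 (95% counting interval 57.8 to 88.0), 49.2 (39.8 to 60.9) and 75.0 (60.8 to 92.4) in Dlx5CE-E12.5 replicates 1, 2 and 3. It was 57.8 (52.7 to 63.5) and 19.1 (17.9 to 20.4) in Fgfr3CE-E12.5 replicates 2 and 3. The intervals are Poisson intervals on the log scale and cover the counting error of reads only. RANKL transcripts outnumbered those of osteoprotegerin in all 5 libraries, and the lineages overlapped, with Fgfr3CE-E12.5 replicate 2 inside the range of the Dlx5CE-E12.5 libraries and replicate 3 below it. The mean log2 ratio was 6.002 ± 0.33 (SD, n = 3) and 5.05 ± 1.13 (SD, n = 2), a difference of -0.95 (exact two-sided permutation test, p = 0.4, where 3 against 2 libraries allow no p below 0.2). Without Fgfr3CE-E12.5 replicate 3 the difference was -0.15, and without replicate 2 it was -1.75. A difference of the ratio between the lineages was thus not detectable with these libraries. No difference, of any size, could reach p under 0.05 in this permutation test. The adjusted p under 0.05 of each gene taken alone came from edgeR's quasi-likelihood test and cannot be set against it. Per kilobase the ratio was 89.8, 62.0 and 94.5 in Dlx5CE-E12.5 cells and 72.9 and 24.1 in Fgfr3CE-E12.5 cells.

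The ratio of the CSF1R ligands, *Csf1* to *Il34*, separated the lineages. It was 7.49, 5.68 and 5.001 in Dlx5CE-E12.5 replicates 1, 2 and 3, and 20.9 and 57.3 in Fgfr3CE-E12.5 replicates 2 and 3. *Csf1* was the larger count in all 5 libraries, and its excess was greater in both Fgfr3CE-E12.5 libraries than in any Dlx5CE-E12.5 library. The mean log2 ratio was 2.58 ± 0.30 (SD, n = 3) against 5.11 ± 1.03 (SD, n = 2), a difference of 2.53 or 5.79-fold (exact two-sided permutation test, p = 0.2, the smallest p that this design allows). The difference was 1.81 without Fgfr3CE-E12.5 replicate 3 and 3.26 without replicate 2. Per kilobase the ratio ran from 1.86 to 2.78 in Dlx5CE-E12.5 cells, and was 7.75 and 21.3 in Fgfr3CE-E12.5 cells.

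**Figure D3:**
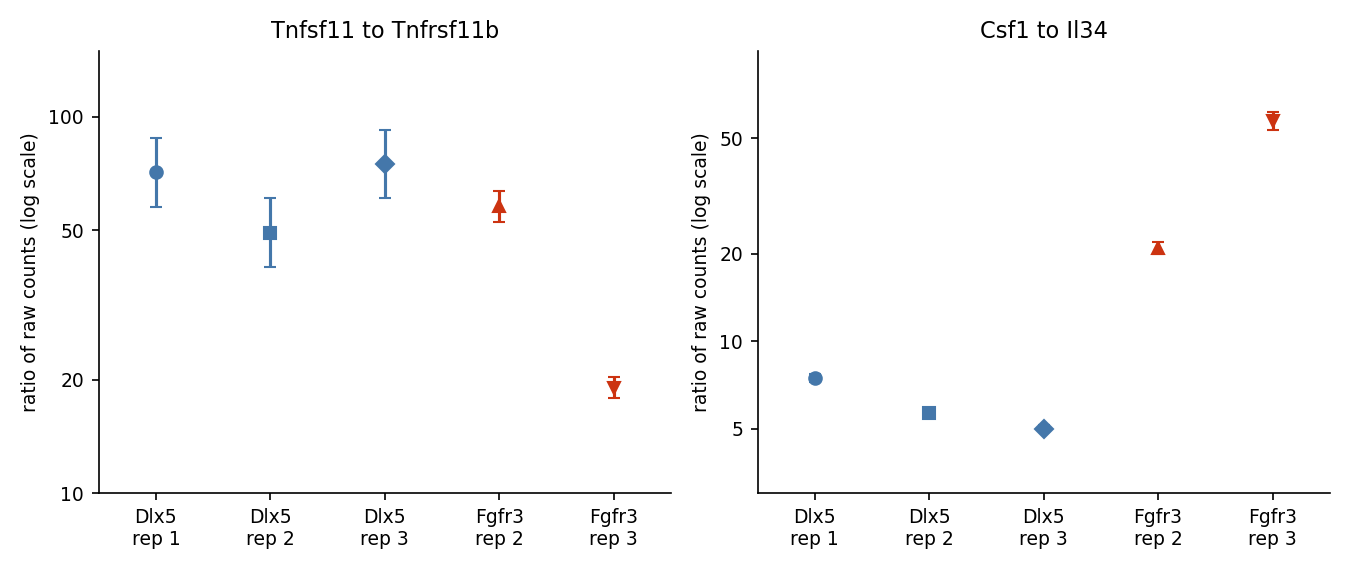
Ratios of raw counts in each library on log axes, Tnfsf11 to Tnfrsf11b on the left and Csf1 to Il34 on the right, with 95% counting intervals. On the left, Fgfr3 replicate 2 (57.8) falls among the Dlx5 libraries (49.2 to 75.0) and replicate 3 (19.1) below them. On the right, both Fgfr3 libraries (20.9 and 57.3) lie above the Dlx5 libraries (5.001 to 7.49).

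Upstream sequence could be printed for *Tnfsf11* and *Csf1*, whose promoter windows are held by RefSeq on GRCm38.p6. Each window has 250 bases before the annotated start of the gene and 50 after it. Windows were found for only these 2 of the 4 genes, which were both abundant and moved in opposite directions between the lineages. The 100 bases before each start, from chr14:78308044-78308143 and chr3:107760470-107760569, read on the minus strand from 5′ to 3′ with the match to a TATA box in capitals:
Tnfsf11: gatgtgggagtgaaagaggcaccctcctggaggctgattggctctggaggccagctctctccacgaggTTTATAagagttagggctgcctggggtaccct
Csf1: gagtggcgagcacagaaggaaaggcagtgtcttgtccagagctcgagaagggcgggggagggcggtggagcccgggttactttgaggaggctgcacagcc

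The window of *Tnfsf11* held the letters TATAAA once, on the opposite strand, 32 to 27 bases before the start, and 1 match to the E-box CANNTG. The window of *Csf1* held none of the motifs searched. TATAAA occurs on either strand in 13.62% of all 32851 promoter windows and CANNTG in 72.31%. Neither window held TGTGGT (Runx, in 16.76% of all windows), TGANTCA (AP-1, 7.81%), TGACGT (the core of the cyclic AMP response element, 7.51%) or the palindromic Ebf motif (0.90%). The motifs were searched on both strands, and no searched motif contains another. The GC content of the windows was 61.67% for *Tnfsf11* and 58.67% for *Csf1*, with 7 and 16 CpG dinucleotides.

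Of 5 receptors named for these signals, 1 was called in each direction, where 29.5% of all genes were called. *Csf1r*, the receptor of M-CSF and IL-34, was called higher in Fgfr3CE-E12.5 cells, at 43.7 and 70.1 CPM against 10.3 to 15.4 CPM in Dlx5CE-E12.5 cells (log2 fold change 2.18, SE 0.26). It belongs also to the macrophage markers, of which 5 of the 7 tested were called higher in Fgfr3CE-E12.5 cells and which summed to 65.7 to 102 CPM in Dlx5CE-E12.5 libraries and to 166 and 230 CPM in Fgfr3CE-E12.5 replicates 2 and 3. *Tnfrsf11a*, which encodes RANK, had 39, 0 and 2 counts in Dlx5CE-E12.5 replicates 1 to 3, and 190 and 174 in Fgfr3CE-E12.5 replicates 2 and 3 (adjusted p = 0.126, edgeR's quasi-likelihood test at the lower filter). *Sdc1*, which encodes the proteoglycan syndecan-1, named as a receptor of IL-34, was called higher in Dlx5CE-E12.5 cells, at 760 to 809 CPM against 402 and 381 CPM, with a log2 fold change of -1.01 just past the threshold. This call was lost with library size alone, with all features tested, and without Dlx5CE-E12.5 replicate 3, Fgfr3CE-E12.5 replicate 2 or Fgfr3CE-E12.5 replicate 3. The other receptors of the list, *Lgr4* for RANKL and *Ptprz1* for IL-34, had log2 fold changes of -0.42 and -0.77 with overlapping libraries and were not called.

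Osteoclast markers were higher in the Fgfr3CE-E12.5 libraries, where they summed to 2849 and 2835 CPM, against 322 to 371 CPM in Dlx5CE-E12.5 libraries. Of 9 tested, 6 were called higher in Fgfr3CE-E12.5 cells. Most of the sum was *Mmp9*, which encodes a matrix protease also made by other marrow cells, at 2488 and 2459 CPM against 67.5 to 74.4 CPM. *Ctsk*, which encodes the bone-resorbing protease cathepsin K, was at 174 and 169 CPM against 175 to 179 CPM (log2 fold change -0.05, not called). Among markers nearer to osteoclasts alone, *Ocstamp* and *Dcstamp* had no counts in any Dlx5CE-E12.5 library and 2.32 to 3.79 CPM in Fgfr3CE-E12.5 libraries, and the calcitonin receptor gene *Calcr* had 18 counts in Fgfr3CE-E12.5 replicate 2 and none in the other libraries. The part of osteoclast-lineage cells in *Csf1r* and *Tnfrsf11a* was not tested.

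Among 14 other secreted factors that promote osteoclast formation, 12 were tested and 8 were called, 3 higher in Fgfr3CE-E12.5 cells and 5 higher in Dlx5CE-E12.5 cells, with a median log2 fold change of 0.25 against 0.01 over all genes tested. The share called, 66.7%, stood above the 29.5% of all genes, but the factors moved in both directions. The genes called higher in Dlx5CE-E12.5 cells were *Il6*, *Ccl2*, *Ccl7*, *Cxcl12* and *Clcf1*. *Il6*, a cytokine that raises RANKL in stroma, was at 37.5, 43.5 and 86.0 CPM against 15.2 and 5.82 CPM (log2 fold change -2.41, SE 0.53). *Ccl2* and *Ccl7*, which attract monocytes, had log2 fold changes of -2.18 and -2.65, and *Cxcl12* and the gp130 ligand gene *Clcf1* of -1.67 and -1.04. In the opposite direction, *Vegfa*, a ligand that also attracts osteoclast precursors, rose from 4.40 to 12.5 CPM in Dlx5CE-E12.5 libraries to 583 and 432 CPM in Fgfr3CE-E12.5 libraries (log2 fold change 5.91, SE 0.43). *Spp1*, which encodes osteopontin and is also one of the osteoblast markers, and *Il1b*, a cytokine of myeloid cells, had log2 fold changes of 2.61 and 2.54. The genes not called were *Lif*, *Wnt5a*, *Tnf* and *Tnfsf13b*, between 0.10 and 0.76 with overlapping libraries, and *Il11* and *Il1a* were under the lower filter. Without Dlx5CE-E12.5 replicate 3, or without Fgfr3CE-E12.5 replicate 3, 3 genes of this list rather than 5 were called higher in Dlx5CE-E12.5 cells.

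Of 12 other factors that restrain osteoclasts, 8 were tested and 3 were called (37.5%, against 29.5% of all genes). *Il10* and *Il27* were under the lower filter, and *Ifnb1* and *Csf2* were not analysed here. *Wnt4* and *Sema3a* were higher in Fgfr3CE-E12.5 cells. *Wnt4*, a Wnt ligand that dampens the response of precursors to RANKL, was at 57.7 and 70.6 CPM against 9.95 to 23.3 CPM (log2 fold change 1.91, SE 0.33). *Sema3a*, a semaphorin that inhibits osteoclast differentiation, was at 32.3 and 22.5 CPM against 9.98 to 14.4 CPM (1.08, SE 0.25). *Wnt16*, a Wnt ligand that raises osteoprotegerin, was higher in Dlx5CE-E12.5 cells, at 1.87 to 6.19 CPM against 0.161 and 0.281 CPM in the fit with the lower filter (-4.07, SE 0.75). *Sfrp1*, *Efnb2*, *Il18*, *Il1rn* and *Slit3* were not called, with log2 fold changes from -0.38 to 0.74. Of the calls, 1 higher in Fgfr3CE-E12.5 cells was lost without Dlx5CE-E12.5 replicate 3 or without Fgfr3CE-E12.5 replicate 2, the latter with 2 genes higher in Dlx5CE-E12.5 cells. The median log2 fold change of the list was 0.34.

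**Figure D4:**
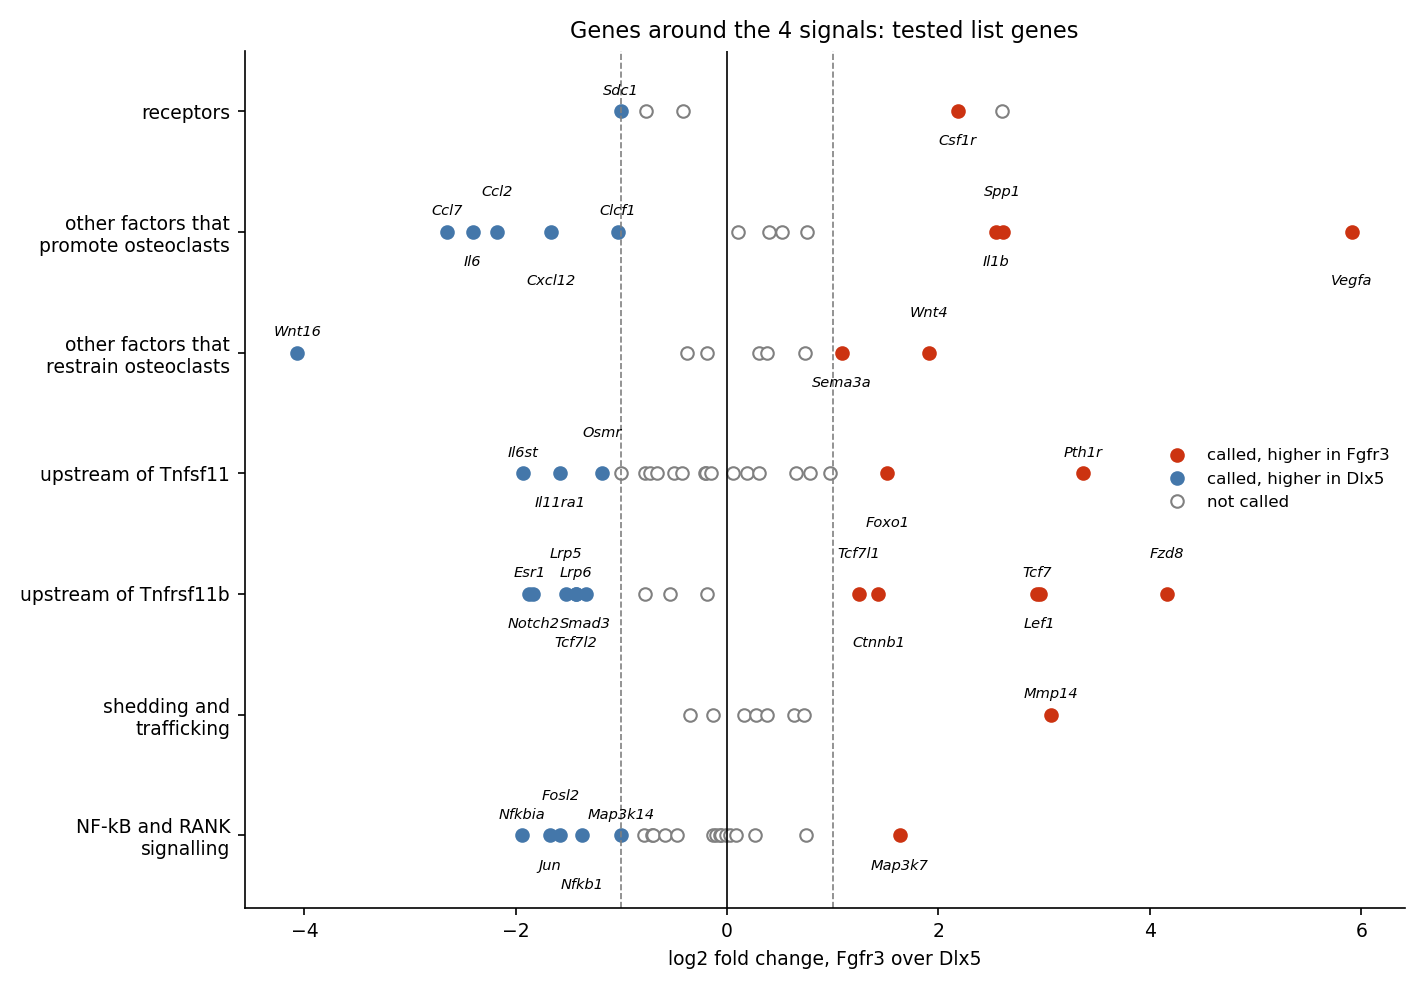
Log2 fold changes (Fgfr3 over Dlx5) of the tested genes in 7 lists around the 4 signals, 1 point a gene. Filled points with names were called (adjusted p under 0.05 and log2 fold change past the dashed lines at -1 and 1), red where higher in Fgfr3 and blue where higher in Dlx5. Called genes lie on both sides in most lists, with Vegfa (5.91) farthest to the right and Wnt16 (-4.07) farthest to the left.

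Of 20 receptors and factors that act upstream of *Tnfsf11* in osteoblast-lineage cells, all were tested and 5 were called (25%, against 29.5% of all genes). *Pth1r*, the receptor through which parathyroid hormone raises RANKL, was 433 and 396 CPM in Fgfr3CE-E12.5 libraries against 35.0 to 44.5 CPM in Dlx5CE-E12.5 libraries (log2 fold change 3.37, SE 0.16). *Foxo1* was also higher in Fgfr3CE-E12.5 cells (1.52). Called higher in Dlx5CE-E12.5 cells were *Il6st*, which encodes the shared cytokine receptor subunit gp130 (-1.93), *Il11ra1* for interleukin-11 (-1.58) and *Osmr* for oncostatin M (-1.19). The related receptor genes *Lifr* (-0.78) and *Il6ra* (0.19, libraries overlapping) were not called. A further 8 genes had an adjusted p under 0.05 without passing the fold threshold, among them *Stat3* (-0.73), which signals below gp130, and *Creb1* (-0.9995). *Vdr*, the vitamin D receptor gene, was at 154 and 171 CPM against 161 to 205 CPM and was not called. With library size alone as the scaling, 3 genes of the list were called higher in Fgfr3CE-E12.5 cells and 2 higher in Dlx5CE-E12.5 cells, and the median log2 fold change of the list turned from -0.20 to 0.02.

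All 14 genes of the Wnt, Ebf, estrogen, TGF-beta and Notch pathways that act upstream of *Tnfrsf11b* were tested, and 11 were called (78.6%, against 29.5% of all genes), 5 higher in Fgfr3CE-E12.5 cells and 6 higher in Dlx5CE-E12.5 cells. The genes of canonical Wnt signalling were divided. *Fzd8*, a Wnt receptor gene, was at 64.5 and 73.2 CPM against 2.92 to 4.85 CPM (log2 fold change 4.16, SE 0.24), and *Lef1*, *Tcf7*, *Ctnnb1* (which encodes beta-catenin) and *Tcf7l1* were higher in Fgfr3CE-E12.5 cells by log2 fold changes of 2.96, 2.93, 1.43 and 1.25. The Wnt co-receptor genes *Lrp5* and *Lrp6* and the transcription factor gene *Tcf7l2* were higher in Dlx5CE-E12.5 cells (-1.52, -1.43 and -1.43). So were *Esr1*, the estrogen receptor alpha gene (-1.87), *Notch2* (-1.83) and *Smad3* (-1.34). *Ebf2*, a transcription factor gene known to act on *Tnfrsf11b*, was at 68.8 and 32.8 CPM against 64.0 to 82.9 CPM and was not called. The median log2 fold change of the list was -0.66. Both directions also held calls without each library in turn, with 5 genes higher in Fgfr3CE-E12.5 cells and 5 to 8 higher in Dlx5CE-E12.5 cells.

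Of 8 genes that shed membrane ligands or carry RANKL to the cell surface, 1 was called (12.5%, against 29.5% of all genes). *Mmp14*, which encodes a membrane protease that cleaves RANKL, was at 1219 and 1274 CPM in Fgfr3CE-E12.5 libraries against 111 to 199.8 CPM in Dlx5CE-E12.5 libraries (log2 fold change 3.06, SE 0.26). The other sheddase genes, *Adam10*, *Adam17* and *Adam19*, had log2 fold changes of 0.16, -0.35 and -0.13 and were not called, nor were *Timp3*, *Vps33a*, *Rab27a* and *Rab27b*.

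Of 20 genes of NF-kB and RANK signalling, which act below the TNF receptor family, 6 were called, 1 higher in Fgfr3CE-E12.5 cells and 5 higher in Dlx5CE-E12.5 cells. The share called was 30%, near that of all genes. *Nfkbia*, an inhibitor gene that NF-kB itself induces, was at 1174 to 1660 CPM in Dlx5CE-E12.5 libraries against 404 and 304 CPM (log2 fold change -1.94, SE 0.24). *Nfkb1* (-1.37), the AP-1 genes *Jun* (-1.67) and *Fosl2* (-1.58), and *Map3k14* (-1.01) were also higher in Dlx5CE-E12.5 cells, and *Map3k7*, which encodes the kinase TAK1, was higher in Fgfr3CE-E12.5 cells (1.63). *Nfatc1*, the main transcription factor gene of osteoclast differentiation, was at 62.9 and 66.9 CPM against 49.4 to 103 CPM and was not called.

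The genes whose levels over the 5 libraries most resembled those of each signal were found by Pearson correlation of log2 CPM among 10085 genes. For *Tnfsf11* they were *Nkapd1*, *Kif13a* and *Zfp423*, with r from 0.9939 to 0.9974. For *Tnfrsf11b* they were *Cep170b*, *Wfdc21* and *Ngp* (r from 0.9993 to 0.9997), of which *Ngp* is a neutrophil granule gene and was at 603 to 895 CPM in Dlx5CE-E12.5 libraries and at 2117 and 5809 CPM in Fgfr3CE-E12.5 replicates 2 and 3. Those given for *Csf1* are *Npm3* (0.9992) and *H2-Q10* (0.9991), and those of *Il34* were *Pik3r1*, *Dnajb9* and *Rtl8a* (0.9996 to 0.9998). With 5 libraries in separate lineages such values are common: 82 genes had r above 0.95 with *Tnfsf11*, 532 with *Tnfrsf11b*, 885 with *Csf1* and 1490 with *Il34*. The correlations share libraries and depth and are given as a description only.

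The direction of each of the 4 differences was the same under every alternative tried. *Il34* and *Csf1* kept an adjusted p under 0.05 in all 15 alternatives, with log2 fold changes of -3.96 to -2.59 and -0.91 to -0.59. *Tnfrsf11b* kept its call in 13 of 14, and *Tnfsf11* kept an adjusted p under 0.05 in 10 of 15. The genes lie on both sides of the median GC content, with 44.9% for *Tnfsf11*, 42.9% for *Tnfrsf11b*, 54.4% for *Csf1* and 57.0% for *Il34*. After removal of a trend of fold change on GC content, the log2 fold changes were 0.72, 1.79, -0.87 and -3.30.

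**Figure D5:**
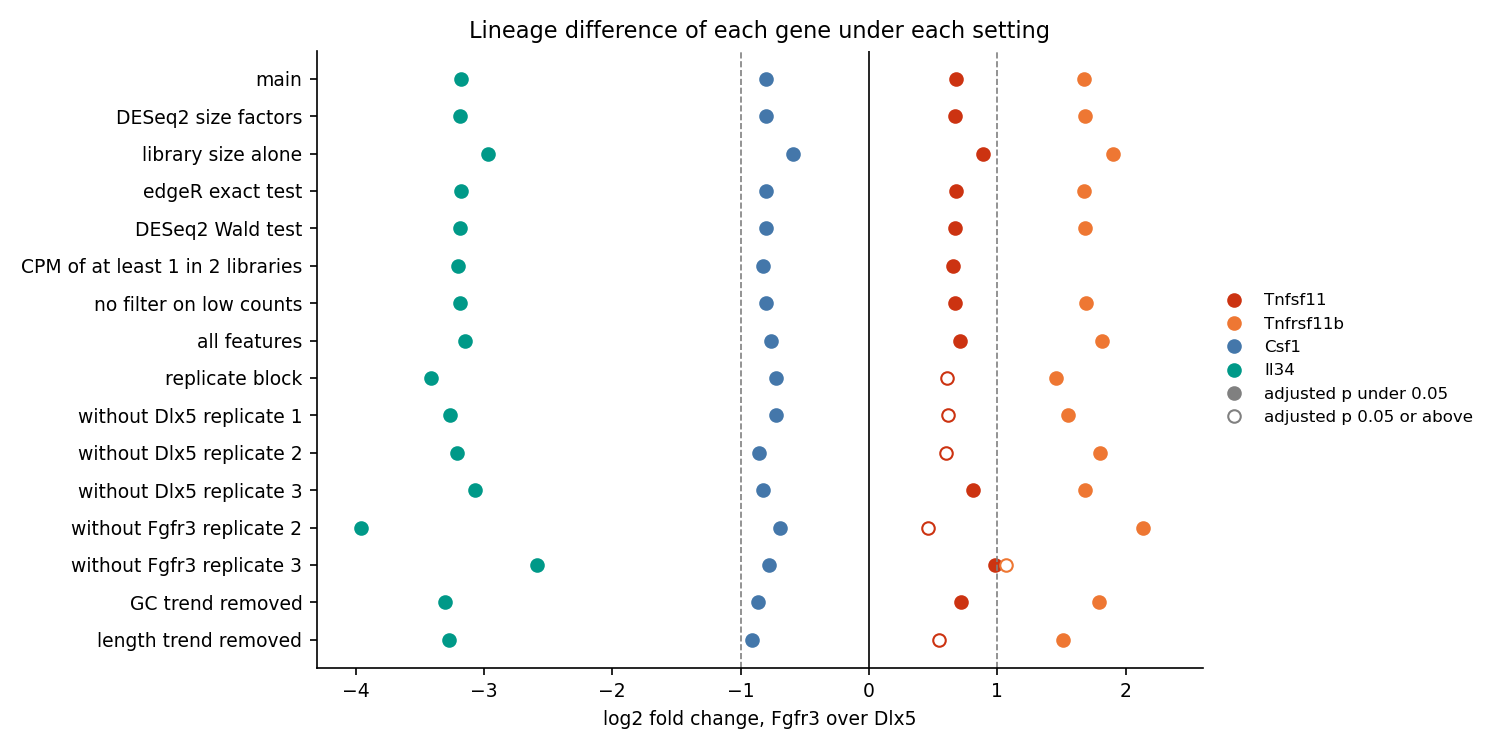
Log2 fold changes (Fgfr3 over Dlx5) of the 4 genes under the reported fit (main) and each alternative. Filled points have an adjusted p under 0.05, open points do not, and dashed lines mark -1 and 1. No gene crosses 0, while Tnfsf11 has 5 open points and Tnfrsf11b has 1, without Fgfr3 replicate 3.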

How the data were processed

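Bulk RNA-seq of sorted Cxcl12-GFP and tdTomato double-positive cells was analysed from the deposited tables. The authors aligned reads to mm10 and counted them on Ensembl genes and on added reporter sequences. The deposited counts are raw. Submitters' processing notes name TopHat2 2.0.13, Bowtie2 2.2.1, HTSeq and DESeq2, and the strand setting is not given in the sources used here. A depth-normalized signal and rlog values on a log2 scale, also deposited by the authors, entered only alternatives for the ratios. Groups were taken from the sample labels. Every pair of libraries differed by more than counting error. The p-values measure the spread between pools of mice.

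Protein-coding genes and reporters entered the test when 2 or more libraries reached 10 CPM. The fit used edgeR 4.0.16 (R 4.3.3; TMM, quasi-likelihood test, Benjamini-Hochberg adjustment, no covariate). Each SE was derived afterwards, as the absolute log2 fold change divided by the square root of the test's F statistic. Genes that failed this filter were taken from a fit that required 1 CPM. Lists combine both fits. Symbols, lengths and coordinates were from GENCODE M21. Ratios were compared by exact permutation over libraries. The fit was tested on simulated data. DESeq2 1.42.0, other scalings, filters, trends on GC content and length, a replicate block and leaving out libraries were alternatives.

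The genes and lists were chosen with earlier results of these data known. Named are the 4 genes, members of the lists with their counts, markers standing beside a member, and the 3 genes most correlated with each member, of which 1 is not reported here. Promoter windows were found for 2 of the 4 genes. Depth was between 22035650 and 58166285 counts, and *Tnfrsf11b* rested on 87 to 89 counts in each Dlx5CE-E12.5 library. Reads carried no molecular identifiers, so copies made by amplification were not separated. The intervals treat each read as independent and cover the counting error of reads only.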

Additional observations from a re-analysis of the deposited data

How the results depend on the processing

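The log2 fold changes of the 4 genes and the differences of both ratios kept their direction under every alternative. Without a fold threshold, 4880 genes had an adjusted p under 0.05 in place of 2971 calls, and with 1 library left out the calls ranged from 2026 to 2987. With library size alone as the scaling, the share of calls higher in Fgfr3CE-E12.5 cells moved from 55.64% to 66.3%. The median over all genes moved from 0.01 to 0.22 on the log2 scale. Without Fgfr3CE-E12.5 replicate 2 that share was 46.1%, and without Fgfr3CE-E12.5 replicate 3 it was 49.21%, so that the majority of calls turned. The log2 fold change of *Tnfsf11* was 0.55 (edgeR adjusted p = 0.0864) after removal of a trend on transcript length, and 0.46 to 0.98 with 1 library left out. That of *Tnfrsf11b* ranged from 1.07 to 2.14, of *Csf1* from -0.86 to -0.69 and of *Il34* from -3.96 to -2.59 with 1 library left out. The difference of the log2 ratio of *Tnfsf11* to *Tnfrsf11b* ranged from -1.75 to -0.15, and that of *Csf1* to *Il34* from 1.81 to 3.26. From the deposited rlog values, which shrink low counts, the latter was 1.84. For these values the cause was not tested.

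The replicate numbers shared by the lineages refer to different pools of mice. The deviations of same-numbered libraries had r = 0.12 for number 2 and -0.05 for number 3. With 2 Fgfr3CE-E12.5 libraries, whose deviations mirror each other, crossed pairs had the same values with opposite sign. These values therefore cannot decide whether the numbers mark a pairing. With the replicate block, 3060 genes were called, and *Tnfsf11* had a log2 fold change of 0.61 (edgeR adjusted p = 0.123). *Tnfsf11* was not called with or without the block, and the block moved none of the other 3 genes across its threshold, with log2 fold changes of 1.46 for *Tnfrsf11b*, -0.72 for *Csf1* and -3.41 for *Il34*.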
